A study of Mus musculus with 6 samples.

Results

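This account covers 47 genes of the early secretory pathway in mouse liver: the machinery that brings new proteins to the endoplasmic reticulum (ER), moves them across its membrane, cuts their signal peptides, attaches N-linked glycans and carries them towards the Golgi. They were chosen by name from a list in 6 role groups, and matched to array probes through RefSeq accessions. All 47 had at least 1 named probe, out of 20659 named genes on the array, and 46 passed the filter on dim probes. The remaining member, Kdelr3, was not well above background on any of the 6 arrays.

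Livers came from male ICR mice, an outbred stock, weighing 18 to 22 g. The DECB group was given deproteinized extract of calf blood by stomach tube, and the control group was given normal saline the same way, both at 0.08 mL per 20 g once daily for 35 days. The study describes 24 mice, 12 per group, and 3 DECB arrays (DECB 4, 5 and 6) and 3 control arrays (control 1, 2 and 3) were analysed. The labels do not say whether livers were taken before or after the closed-container hypoxia test, they date the DECB samples at 30 days and the controls at 1 day in another field, and they do not link arrays to individual mice. P-values here therefore cover just the variation among these 6 arrays, part or all of which may be technical.

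As background, a protein bound for secretion is recognised by the signal recognition particle (SRP) as its signal peptide leaves the ribosome, and is handed through the SRP receptor to the Sec61 channel. Signal peptidase removes the signal peptide and oligosaccharyltransferase transfers a preformed glycan to asparagine residues. Folded cargo leaves in vesicles coated by COPII, while escaped ER proteins return through KDEL receptors. Hepatocytes secrete most plasma proteins and lipoproteins and carry a large amount of this machinery.

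Signals are given as log2 processed Cy3 values with the 75th percentile of the same array subtracted, and differences as DECB minus control on that log2 scale. The 2 arrays of slide 1, DECB 6 and control 1, were dim: their 75th percentiles were 84.8 and 78.8, against 422 to 551 on the other 4 arrays. Slide 2 held DECB 4 with controls 2 and 3, and slide 3 held DECB 5 alone. The word slide is used here for arrays that share a scan date and time in the file headers. Whether these arrays lay on the same physical slide was not checked. The 10 hepatocyte markers, among them Alb and Apoa1, were well above background on all 6 arrays, with list means of 6.93 to 7.44 on DECB arrays and 7.37 to 7.71 on control arrays.

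Most of the secretory genes had higher signals on the DECB arrays, by modest amounts, and none passed the test. Of the 46 members tested, 41 (89.1%) had a difference above 0, against 47.5% of the 14807 genes tested. The median difference was 0.59 for the members and -0.027 for all genes, and 37 members (80.4%) lay above the upper quartile of all genes, 0.27. The 9402 genes detected above background on every array had a median of -0.073. In limma's fit over all genes, 0 members were higher and 0 lower at an adjusted p under 0.05, where 0.209% of all genes were higher and 0.257% lower, and the smallest adjusted p among members was 0.151. At an unadjusted p under 0.05, 9 members (19.6%) were higher and 0 lower, against backgrounds of 4.22% and 5.79%.

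The 3 DECB arrays lay above the 3 control arrays for 13 members (28.3%), against 7.24% of all genes, and below them for 1 member (2.17%), against 9.4%. The members' median was also above 0 within each slide that carried both groups. These are the same arrays again, DECB 6 with control 1 and DECB 4 with controls 2 and 3, and not a replication. Within slide 1 the members' median was 0.53, with 41 above 0 (all genes, -0.051), and within slide 2 it was 0.69, with 43 above 0 (all genes, -0.060). With slide as a block, 10 members (21.7%) were called higher and 0 lower (limma, adjusted p under 0.05), against 2.73% and 3.92% of all genes. In that fit DECB 5 does not inform the group contrast, since no control shared its slide. With slide as a random block 20 members (43.5%) were called higher and 0 lower, against 6.29% and 8.77% of all genes, and without slide 1 1 member was called higher, against 0.217%, and 0 lower, against 0.312%. The members were chosen with earlier results of these arrays known, so these counts describe the list.

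**Figure D1:**
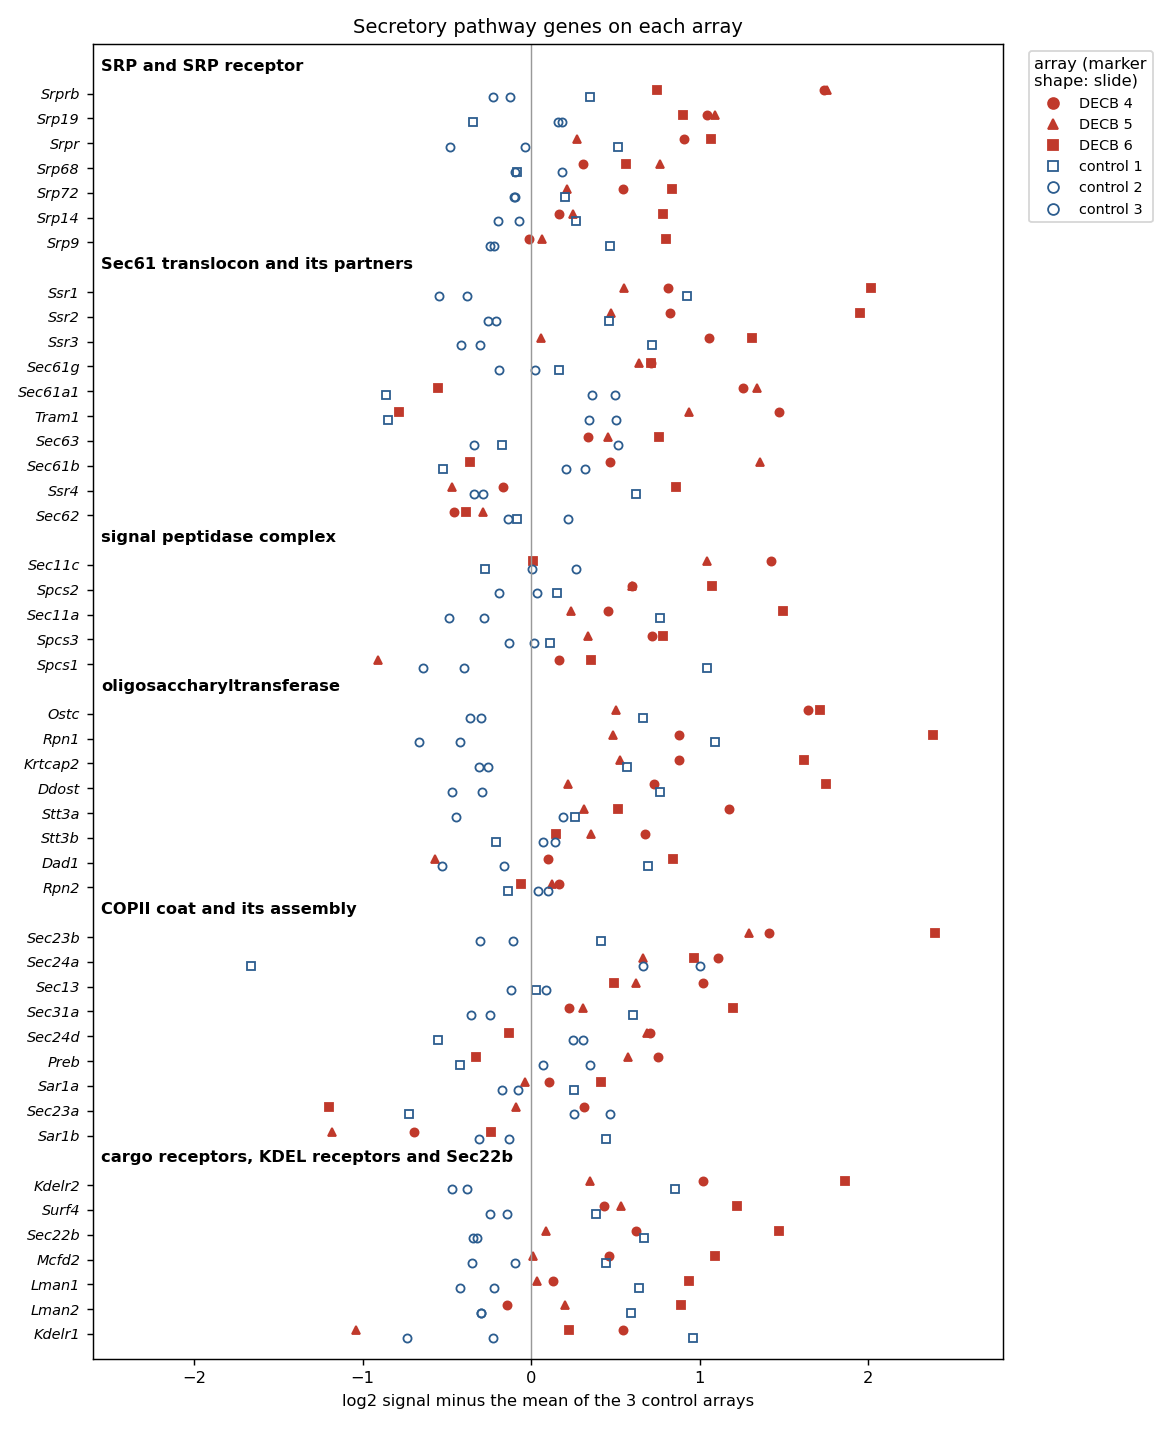
Signal of each of the 46 tested genes on each array, as log2 signal minus the mean of the 3 control arrays (x axis), by role group and sorted by difference. Filled symbols are DECB arrays and open symbols control arrays, and marker shape gives the slide (square 1, circle 2, triangle 3); the DECB symbols average above 0 for 41 genes, and the 2 slide 1 arrays are often displaced together.

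**Figure D2:**
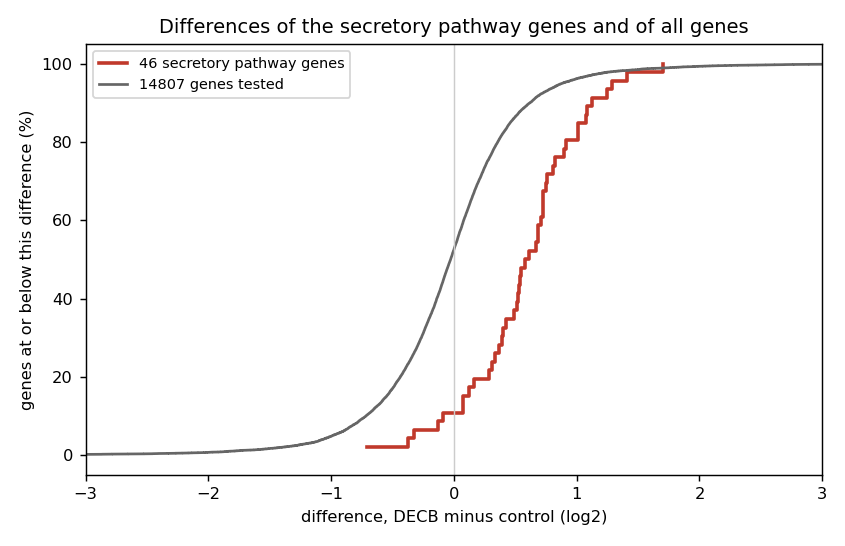
Cumulative share of genes (y axis, %) at or below each DECB minus control difference (x axis, log2) for the 46 secretory pathway genes and all 14807 genes tested. The curve of the secretory genes is displaced to the right, with medians of 0.59 and -0.027.

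For these genes the differences between slides were about as large as those between groups. With so few arrays, slide cannot be told apart from differences between single arrays or mice. From slide 2 to slide 1 the members' signals shifted by a median of 0.78 in size, against a median size of 0.64 for the DECB minus control difference, and the slide shift was the larger for 26 of 46 members. In both groups 28 members were higher on slide 1 and 11 were lower. The 2 slide shifts, DECB 6 minus DECB 4 and control 1 minus the mean of controls 2 and 3, had a Pearson correlation of 0.72 across the 46 genes, which are not independent and share these arrays. Taken array by array, the members' median deviation from their own 6-array mean was 0.28, 0.021 and 0.54 on DECB 4, 5 and 6, against 0.020, -0.36 and -0.42 on controls 1, 2 and 3. For all genes these medians were -0.090, -0.057 and 0.13 on DECB 4, 5 and 6, against 0.11, 0.00020 and -0.016 on controls 1, 2 and 3. DECB 5 and control 1 therefore lay at the same level for the members, but control 1 lay above DECB 5 for all genes. For the members, DECB 4 lay above both of the controls on its own slide.

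**Figure D3:**
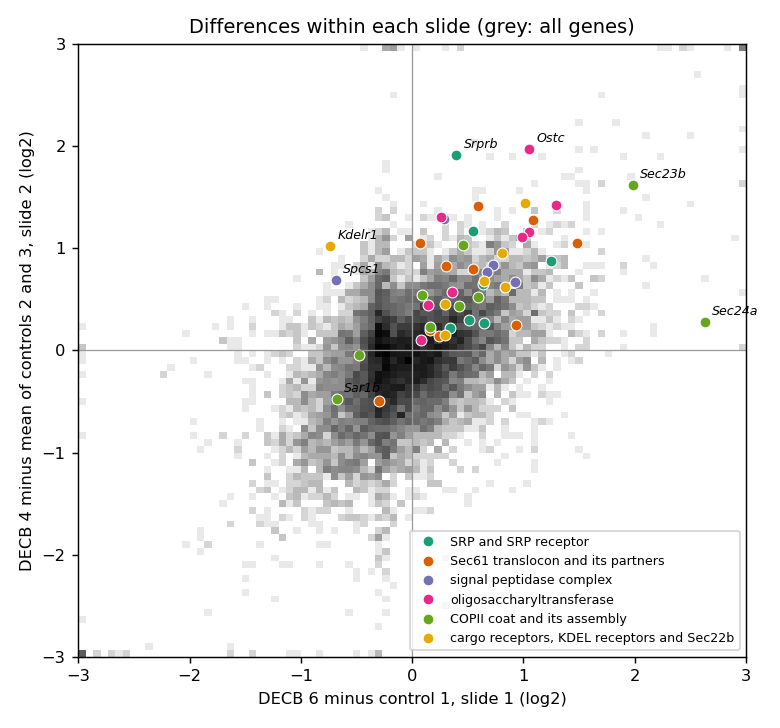
Difference of each gene within slide 1 (x axis, log2) against its difference within slide 2 (y axis, log2), with the secretory genes coloured by role group over a grey density of all genes (values beyond 3 are drawn at the edge). Of the 46 secretory genes 41 lie above 0 within both slides and 3 below 0 within both.

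All 7 listed members of the SRP and its receptor had a difference above 0 (median 0.55, range 0.28 to 1.41). The Srp54 genes of the particle were not members. In another list, Srp54a, Srp54b and Srp54c differed by 0.16, -0.56 and 0.44, with overlapping groups. They were named after their values were seen, and Srp54b was not well above background on DECB 4, DECB 6 and control 1. Srprb, the membrane-anchored GTPase subunit that holds the SRP receptor in the ER membrane, had signals of -0.93, -0.91 and -1.92 on DECB 4, 5 and 6, against -2.31, -2.89 and -2.79 on controls 1, 2 and 3. All DECB arrays were above all controls, by 1.41 on average (SE 0.38, 2.66-fold, limma adjusted p = 0.21). The probe was not well above background on the slide 1 arrays, where the difference was 0.40, against 1.91 within slide 2, and without slide 1 it was the 1 member called. With normexp background correction it was 0.79, and a dimmer probe of Srprb differed by 1.68.

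Srp19, which helps assemble the particle on its RNA, had 2.98, 3.03 and 2.84 on DECB arrays, against 1.60, 2.10 and 2.12 on control arrays. The groups were apart by 1.01 (SE 0.28, limma adjusted p = 0.236), or 1.03 with slide as a block (adjusted p = 0.0421), and a second probe differed by 0.85. Srp68 and Srp72, partners that form a subcomplex of the particle, also did not overlap between groups, with differences of 0.55 and 0.53. Srpr, the receptor subunit that docks the particle, differed by 0.75 with overlapping groups. Srp9 and Srp14, which pause translation as a heterodimer, differed by 0.28 and 0.40, with overlapping groups.

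In the translocon group 9 of 10 members had a difference above 0 (median 0.61, range -0.38 to 1.12). The subunits of the translocon-associated protein (TRAP) complex, which assists Sec61 with some signal peptides, were not uniform. Ssr1 had 3.83, 3.57 and 5.03 on DECB 4, 5 and 6, against 3.94, 2.64 and 2.47 on controls 1, 2 and 3. Control 1 reached into the DECB range, and the difference was 1.12 (SE 0.55, limma adjusted p = 0.586), or 1.19 with slide as a block (SE 0.16, adjusted p = 0.0321). Ssr2 had 2.03, 1.69 and 3.16 on DECB arrays, against 1.67, 1.00 and 0.95 on control arrays, a difference of 1.08 that separated the groups by a narrow margin (adjusted p = 0.0332 with slide as a block). Ssr3 differed by 0.81, whereas Ssr4 had 3.16, 2.86 and 4.19 on DECB arrays, against 3.95, 3.05 and 2.99 on control arrays, a difference of 0.073 that changed sign under several settings.

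The channel itself gave a mixed picture. Sec61a1, the pore-forming subunit, had 6.02, 6.10 and 4.21 on DECB 4, 5 and 6, against 3.90, 5.26 and 5.12 on controls 1, 2 and 3. Both slide 1 arrays were low, so the groups overlapped at a difference of 0.68, while the within-slide values were 0.31 and 0.83. Sec61b, a small tail-anchored subunit, had 6.39, 7.28 and 5.56 on DECB arrays, against 5.40, 6.24 and 6.13 on control arrays, with both slide 1 arrays again the lowest of their group. Its difference was 0.49, but 0.16 and 0.20 within slides 1 and 2 and 0.053 without DECB 5. Sec61g, which clamps the channel, had 3.69, 3.62 and 3.69 on DECB arrays, against 2.79 to 3.15 on the 3 control arrays. The groups did not overlap, and it had a difference of 0.69 (SE 0.26, limma adjusted p = 0.435).

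Tram1, which contacts nascent chains at the channel, differed by 0.54, with 0.066 within slide 1 and 1.05 within slide 2. Sec62 and Sec63 help Sec61 open for some substrates, and Sec62 is also a receptor for ER turnover by autophagy. Sec63 differed by 0.52. Sec62 had 3.30, 3.47 and 3.37 on DECB arrays, against 3.67, 3.61 and 3.97 on control arrays, the member whose DECB arrays all lay below the controls. Its difference was -0.38 (SE 0.26, limma adjusted p = 0.784), and its other, dimmer probe differed by 0.53, so the probes disagreed in sign.

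Signal peptidase had 4 of 5 members above 0 (median 0.73). Spcs2, an accessory subunit, had 3.11, 3.11 and 3.59 on DECB arrays, against 2.67, 2.55 and 2.33 on control arrays. Spcs3, which is needed for activity, had 2.22, 1.84 and 2.29 on DECB arrays, against 1.62, 1.52 and 1.38 on control arrays. Both were separated between groups, by 0.76 (SE 0.28) and 0.61 (SE 0.27), with limma adjusted p of 0.43 and 0.532. The alternative catalytic subunits Sec11a and Sec11c differed by 0.73 and 0.83 with overlapping groups. Spcs1, a small subunit, had 3.49, 2.42 and 3.68 on DECB arrays, against 4.37, 2.93 and 2.68 on control arrays. Its difference was -0.13, with -0.69 within slide 1 and 0.69 within slide 2, so its direction was not settled.

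Oligosaccharyltransferase had 8 of 8 members above 0 (median 0.78, range 0.077 to 1.29), and 4 were called higher with slide as a block, where 2.73% of all genes were. Ostc, a subunit of the form of the enzyme that works at the translocon, had 0.96, -0.17 and 1.03 on DECB 4, 5 and 6, against -0.019, -0.98 and -1.04 on controls 1, 2 and 3. DECB 5 lay just below control 1, and the difference was 1.29 (SE 0.46, limma adjusted p = 0.395), or 1.58 with slide as a block (adjusted p = 0.041). Krtcap2, another subunit of that form, had 2.34, 1.98 and 3.08 on DECB arrays, against 2.02, 1.20 and 1.15 on control arrays, a difference of 1.01 (blocked 1.12, adjusted p = 0.0321).

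Rpn1 and Ddost are core subunits, Rpn1 as a substrate-handling scaffold and Ddost next to the catalytic site. Rpn1 had 4.03, 3.64 and 5.54 on DECB arrays, against 4.24, 2.73 and 2.49 on control arrays. Both slide 1 arrays were the highest of their group, and the difference was 1.25 (SE 0.65, 2.37-fold, limma adjusted p = 0.623), with 1.29 within slide 1 and 1.42 within slide 2 (blocked adjusted p = 0.0288). Ddost had 1.98, 1.48 and 3.01 on DECB arrays, against 2.02, 0.96 and 0.78 on control arrays, with a difference of 0.90 (blocked 1.06, adjusted p = 0.0363).

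The core subunits Rpn2 and Dad1 differed little. Rpn2 differed by 0.077, with an array range of 4.85 to 5.08 on DECB arrays and 4.77 to 5.01 on control arrays. Dad1 differed by 0.12. Both groups overlapped for each. The catalytic subunits are Stt3a, which glycosylates proteins as they enter, and Stt3b, which reaches sites that were skipped. Stt3a had 0.19, -0.67 and -0.47 on DECB arrays, against -0.72, -1.43 and -0.80 on control arrays. Stt3b had 2.11, 1.79 and 1.58 on DECB arrays, against 1.23, 1.58 and 1.50 on control arrays. Neither overlapped between groups, and the differences were 0.67 and 0.39 (limma adjusted p = 0.639 and 0.797).

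The COPII coat had 7 of 9 members above 0 and a group median of 0.42, which was 0.14 without control 1 and 0.66 without DECB 6. It also held the extremes of the list. Sec23b, an inner-coat subunit that activates the GTPase of Sar1, had 2.07, 1.95 and 3.05 on DECB 4, 5 and 6, against 1.07, 0.55 and 0.36 on controls 1, 2 and 3. Its DECB arrays all lay above the controls, and its difference of 1.70 (SE 0.39, 3.25-fold, limma adjusted p = 0.151) was the largest of the 46 members. Within slides 1 and 2 it was 1.98 and 1.62, and the blocked value was 1.77 (adjusted p = 0.0213). Its paralog Sec23a had 1.27, 0.87 and -0.25 on DECB arrays, against 0.23, 1.21 and 1.42 on control arrays, a difference of -0.33 with overlapping groups.

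Sec13, an outer-coat subunit, had 1.46, 1.06 and 0.93 on DECB arrays, against 0.47, 0.52 and 0.32 on control arrays, with no overlap and a difference of 0.71 (SE 0.28, limma adjusted p = 0.457). Its partner Sec31a differed by 0.58. Preb, the exchange factor that loads Sar1 with GTP, differed by 0.33. The cargo-binding subunits Sec24a and Sec24d differed by 0.91 and 0.42. The value for Sec24a rests on control 1, which read 0.79 at the brightest probe, against 3.45 and 3.11 on controls 2 and 3 and 3.11 to 3.56 on DECB arrays. Without control 1 it was 0.081, and 2 further probes of Sec24a differed by -0.18 and 0.10.

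Sar1a and Sar1b are the GTPases that start the coat, and in humans loss of SAR1B blocks chylomicron export from the gut. Sar1a had 3.99, 3.85 and 4.30 on DECB arrays, against 4.14, 3.80 and 3.71 on control arrays. Sar1b had 4.66, 4.17 and 5.12 on DECB arrays, against 5.79, 5.04 and 5.22 on control arrays. The difference was 0.16 for Sar1a and -0.70 for Sar1b (SE 0.36, 0.614-fold, limma adjusted p = 0.619), the lowest of all members, with -0.68 within slide 1 and -0.48 within slide 2. For Sar1b DECB 6 lay above control 2, so the groups overlapped.

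Among cargo receptors, KDEL receptors and Sec22b, 6 of 7 tested members had a difference above 0 (median 0.52, and 0.24 without DECB 6). Kdelr2 had 0.97, 0.31 and 1.82 on DECB 4, 5 and 6, against 0.81, -0.43 and -0.51 on controls 1, 2 and 3. Control 1 lay inside the DECB range, and the difference was 1.08 (SE 0.52, limma adjusted p = 0.586), or 1.26 with slide as a block (adjusted p = 0.0331). Kdelr1 had 1.00, -0.58 and 0.68 on DECB arrays, against 1.42, 0.23 and -0.27 on control arrays, a difference of -0.091 that was -0.74 within slide 1 and 1.02 within slide 2. The third receptor, Kdelr3, had -6.29, -5.25 and -4.51 on DECB arrays, against -4.15, -6.36 and -6.21 on control arrays, all at background.

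Surf4, a receptor that exports lipoproteins and other soluble cargo in mouse liver, had 5.41, 5.51 and 6.19 on DECB arrays, against 5.36, 4.83 and 4.73 on control arrays. The groups did not overlap, and the difference was 0.73 (SE 0.34, limma adjusted p = 0.561). Sec22b, a SNARE of ER to Golgi vesicles, had 2.68, 2.15 and 3.53 on DECB arrays, against 2.73, 1.72 and 1.74 on control arrays, a difference of 0.73 (blocked 0.89, adjusted p = 0.0438). Lman1 and Mcfd2, which together export clotting factors, differed by 0.37 and 0.52, and Lman2, a lectin of the same family as Lman1, by 0.31. The groups of all 3 overlapped.

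Paralogs were compared within each array, which removes any scaling of the array. Of 7 pairs, none passed (exact permutation test over the 6 arrays, two-sided, smallest possible p = 0.1, smallest adjusted p = 0.35). For Kdelr2 minus Kdelr1 the log2 ratio was -0.029, 0.89 and 1.14 on DECB arrays, against -0.61, -0.66 and -0.24 on control arrays, a change of 1.17 (exact p = 0.1). For Sar1a minus Sar1b it was -0.67, -0.32 and -0.81 on DECB arrays, against -1.66, -1.24 and -1.51 on control arrays, a change of 0.87 (exact p = 0.1). In both pairs the groups did not overlap, and the change had the same sign within slides 1 and 2. Sec23b against Sec23a changed by 2.02 (exact p = 0.2), since control 1 lay just above the lowest DECB value. The pairs Sec24d and Sec24a, Sec11c and Sec11a, Stt3a and Stt3b, and Lman1 and Lman2 had exact p of 0.6 to 0.9.

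**Figure D4:**
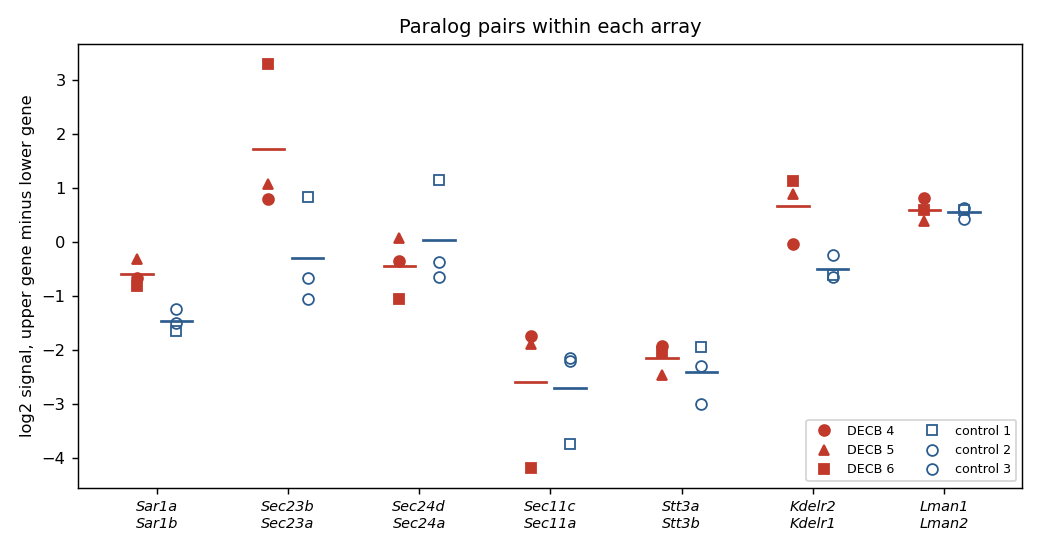
Log2 signal of the upper gene minus that of the lower gene (y axis) for 7 paralog pairs (x axis), 1 point per array, with DECB arrays filled on the left, control arrays open on the right and horizontal bars at group means. Marker shape gives the slide; the groups are apart for Sar1a with Sar1b and Kdelr2 with Kdelr1, and overlap for the others.

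Several probes reported on 21 members, and in 2 of these, Sec62 and Sec24a, the probes differed in sign. In the others all kept probes had the same sign, in different amounts: Sar1a differed by 0.16 at its brightest probe and 0.74 at the other, and Srp72 by 0.53 and 0.062.

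RefSeq promoters (GRCm38.p6), from 250 bases before to 50 after each start, were given for 37 of the 47 members. They were searched on both strands for elements of the ER stress response: ERSE (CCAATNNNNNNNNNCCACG), ERSE-II (ATTGGNCCACG), UPRE (TGACGTGG) and the core CCACG, which lies inside the other 3. The core was found in 25 of 37 members (67.6%), against 46.8% of tested genes with a promoter and 35.5% of all genes. UPRE was found in 3 members (8.11%), against 0.901% of tested genes and 0.714% of all genes. Its holders were Kdelr3, which did not pass the filter, Sec23a (difference -0.33) and Sec24d (0.42). ERSE-II was found in 1 (2.70%), against 0.068% of tested genes, and ERSE in 0, against 0.161%. A match is a string of letters, not a bound site.

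Longer elements are printed for 3 members that held one, to show the letters around them, with the element in capitals, on the gene's strand. They are Kdelr3 on chr15:79516368-79516395 (plus strand, upstream of the start), Sec24d on chr3:123267460-123267487 (plus strand, upstream) and Krtcap2 on chr3:89246481-89246505 (plus strand, just after the start).
Kdelr3, UPRE on the opposite strand: ggccgccccgCCACGTCAccgcgcggcc
Sec24d, UPRE: cccgggcgccTGACGTGGcactagcaac
Krtcap2, ERSE-II: gggacacggATTGGACCACGgacgg

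The 120 bases before the start are shown for the 4 members with the largest differences among those with a promoter, with each core CCACG, or CGTGG on the other strand, in capitals. They are Sec23b on chr2:144556109-144556228 (plus strand, the more upstream of its RefSeq starts), Srprb on chr9:103202066-103202185 (minus strand), Rpn1 on chr6:88084353-88084472 (plus strand) and Ssr1 on chr13:37994209-37994328 (minus strand). Srprb held 3 cores, Ssr1 2, Rpn1 1 and Sec23b, with the largest difference, 0 in this window.
Sec23b: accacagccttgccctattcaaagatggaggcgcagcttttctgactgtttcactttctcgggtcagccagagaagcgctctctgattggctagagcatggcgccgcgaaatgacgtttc
Srprb: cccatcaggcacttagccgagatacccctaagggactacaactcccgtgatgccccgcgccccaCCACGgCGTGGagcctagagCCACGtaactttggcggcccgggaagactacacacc
Rpn1: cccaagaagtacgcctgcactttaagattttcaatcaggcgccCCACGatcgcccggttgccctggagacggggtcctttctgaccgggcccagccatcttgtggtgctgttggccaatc
Ssr1: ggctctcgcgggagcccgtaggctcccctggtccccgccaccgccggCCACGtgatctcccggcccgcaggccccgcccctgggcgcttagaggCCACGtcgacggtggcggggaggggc

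Other genes of the same pathway, in 8 lists of 140 genes, had a smaller median. Of the 137 tested, 89 were above 0 and 48 below, with a median of 0.19, and limma called 0 higher and 0 lower (smallest adjusted p = 0.0564). With slide as a block 19 (13.9%) were called higher and 1 (0.730%) lower, against 2.73% and 3.92% of all genes. The list for the lipid-linked oligosaccharide, the glycan that oligosaccharyltransferase transfers, also held genes for sugar precursors and a transporter. This list had 23 of 33 genes above 0, a median of 0.31 and 6 genes called higher with slide as a block. Its Gmppb, which makes GDP-mannose, differed by 2.11 (SE 0.33, adjusted p = 0.0564), Alg8, a glucosyltransferase of the pathway, by 1.57 (adjusted p = 0.068, not well above background on control 1), and Gfpt1, which starts the hexosamine pathway, by 1.50 (adjusted p = 0.0722).

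The other oligosaccharyltransferase subunits and partners had 4 of 5 genes above 0 and a median of 0.53. Tmem258 was at 1.16, Ost4 at 0.59 and Mlec, a lectin that associates with the enzyme, at 0.53 (limma adjusted p = 0.396 to 0.756). Magt1 was at 0.30, and the 1 gene below 0 was Tusc3 at -0.34, both named after their values were seen. Mlec was not well above background on control 1, and with normexp background correction it differed by 0.26. The TMED family of cargo adaptors had a median of 0.19 over 10 genes, from Tmed3 at 1.85 and Tmed9 at 1.25 to Tmed5 at -0.67. The COPI coat, which returns vesicles to the ER, had a median of 0.25 over 17 genes, with Copg1 at 1.34, Gbf1, the exchange factor of its GTPase, at 1.19 and Arf4 at 1.07. Copg1 was not well above background on DECB 6 and control 1, nor Gbf1 on these and control 2, and with normexp background correction they differed by 0.34 and 0.30. SNAREs and tethers had a median of 0.16 over 20 genes, with the SNARE Bet1 at 1.51 (adjusted p = 0.0841), Scfd1 at 1.29 and the tether Uso1 at 0.93.

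Other translocation and membrane insertion genes, glycan trimming and other COPII genes had medians of 0.13, -0.057 and 0.043. In these lists Get3 (listed by its older symbol Asna1), which delivers tail-anchored proteins, Mmgt1 and Emc9, of the ER membrane protein complex, differed by 0.96, 0.73 and -0.65. Get3 was not well above background on control 1, and its difference was 0.36 with normexp background correction. Uggt1, which reglucosylates misfolded glycoproteins, St6gal1 and Mogs differed by 1.08, 0.91 and 0.70. Tfg, of ER exit sites, Mia2, which exports large cargo, and Ergic1 differed by 0.88, -0.96 and 0.79. None of these 9 genes passed the main test. Under the slide block Uggt1, St6gal1 and Tfg were called higher. The 1 gene of the 8 lists called lower there was Sec61a2, a second form of the channel's pore subunit, named after its values were seen (blocked -1.16, adjusted p = 0.0424). It was not well above background on either slide 1 array. Without the block Sec61a2 differed by -0.95 (limma adjusted p = 0.893), by -0.53 with normexp, and by -1.68 to -0.022 with single arrays left out.

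**Figure D5:**
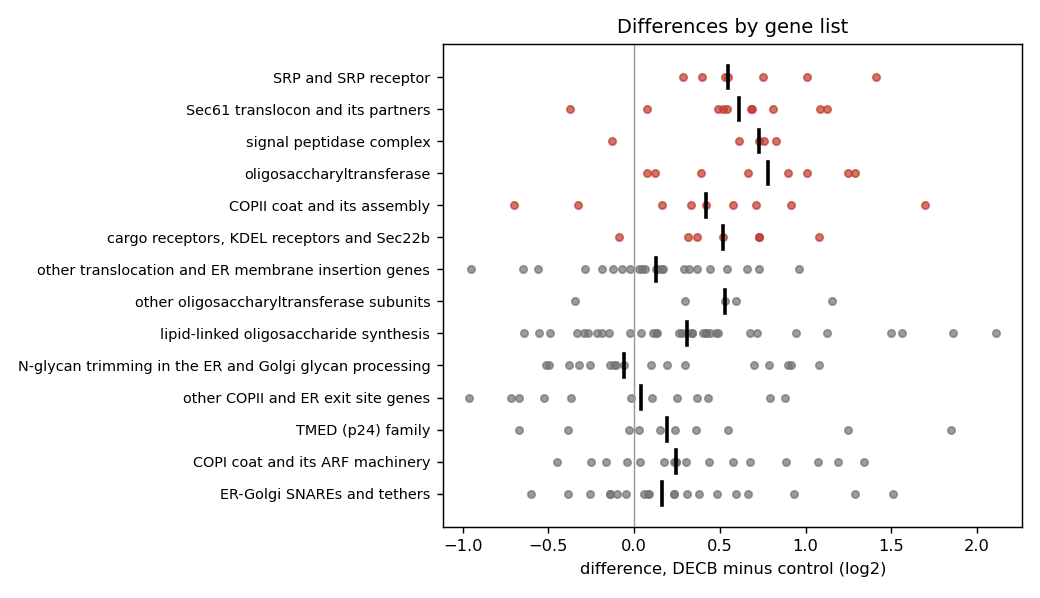
DECB minus control difference (x axis, log2) of each tested gene, 1 point per gene, in the 6 role groups (red) and in 8 lists of other genes of the pathway (grey), with the median of each list as a black bar. The medians of the role groups lie between 0.42 and 0.78 and those of the other lists between -0.057 and 0.53.

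Liver holds other cells, and in RNA from whole tissue fewer cells of a type and less RNA per cell cannot be told apart. Cholangiocyte markers moved with the secretory genes: 6 of 8 were tested and all 6 were above 0, with a median of 0.72 and list means of -1.91 to -1.02 on DECB arrays and -2.87 to -1.78 on control arrays, and the defining markers Krt7 and Epcam did not pass the filter. Plasma and B cell markers, from cells rich in this machinery, had a median of 0.14 over 7 of 10, with means of -2.53 to -2.09 on DECB arrays and -2.38 to -2.08 on control arrays. Of these, Ms4a1, Tnfrsf17 and Irf4 did not pass the filter. Medians were -0.31 for Kupffer cell and macrophage markers (8 of 9 tested), -0.33 for endothelial markers (8 of 8), -0.22 for stellate cell markers (7 of 8), -0.10 for pancreatic acinar markers (5 of 8) and -0.25 for hepatocyte markers (10 of 10). No marker passed the test. With slide as a block 1 endothelial marker, the scavenger receptor Stab2, was called lower (blocked -1.05, adjusted p = 0.0465, and 0.53 without the block). Stab2 was named after its values were seen, and the part of these cells in the secretory genes was not tested.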

How the data were processed

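Each array file is 1-colour (Cy3) scanner output of Agilent Feature Extraction 11.0.1.1, per the file headers and the submitters' processing notes. The deposited columns hold a processed intensity, a background-subtracted one and uncorrected spot and background medians, and the file headers carry statistics of a spatial detrending step. The processed intensity was used. The deposited log2 value table (every column's median 5.34) correlated with its own array's scanner values at 0.742 to 0.774, about as well as with other arrays' (up to 0.773). How its values were scaled and centred stays unknown, as does which array each column follows, and it was used in no comparison.

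Each array's 75th percentile, taken over its 43020 non-control spots, was subtracted on the log2 scale. Control and outlier spots (164 to 322 per array) were left out, spots of a probe were averaged, and a probe was kept if 3 or more of the 6 arrays flagged it well above background (25423 of 39429; 14925 to 29517 per array). RefSeq accessions named 27234 probes (GRCm38.p6 table), and 12195 stayed unnamed. The brightest kept probe stood for a gene. The number of arrays limits the precision.

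limma 3.58.1 in R 4.3.3 (lmFit, eBayes, two-sided, Benjamini-Hochberg over 14807 genes) compared the groups. The fit without a block was tested on simulated data with independent noise and no slide effect, which does not bear on the blocked fits. All members may be named; of other lists, the 3 genes with the smallest p. Members and lists were chosen with earlier results of these data known. Alternatives covered background correction, scaling, filters, probe choice, slide, moderation and single arrays left out. 1 promoter sequence is not reported here.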

Additional observations from a re-analysis of the deposited data

How the results depend on the processing

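No paired analysis was possible because the sample titles share no replicate number between groups; the matched fits are those by slide. The members' median (0.59) stayed between 0.53 and 0.71 under every alternative run, and all 6 role-group medians stayed above 0. Calls of members depended on slide: 10 higher with slide as a fixed block, 20 with slide as a random block (consensus correlation 0.82) and 1, Srprb, without slide 1, against 0 in the other fits; none was lower. Over all genes (31 higher, 38 lower) the counts were 16 and 23 with quantile normalization, 403 and 578 with the fixed block, 927 and 1294 with the random block, 0 and 0 with no filter, and 0 and 2 with controls 2 and 3 averaged; 55 were higher with median scaling. With single arrays left out they ran from 0 to 18 higher and 0 to 35 lower. In limma's fits that called 0, unadjusted p under 0.05 gave 537 higher and 720 lower with no filter, 358 higher with controls 2 and 3 averaged, and 334 to 642 higher and 536 to 702 lower with single arrays left out. The translocon median was 0.77 without slide 1, 0.43 within slide 1 and 0.81 within slide 2, and 0.41 to 0.68 with single arrays left out; that of the coat ran from 0.14 to 0.66.

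Other lists were less steady. The median of other oligosaccharyltransferase subunits was 0.26 with normexp and 0.67 with the fixed block, and 0.31 to 0.63 with single arrays left out. That of glycan trimming (-0.057) was 0.12 with quantile normalization, 0.10 and 0.059 with fixed and random blocks, and 0.042 and 0.16 within slides 1 and 2, with -0.16 to 0.22 when single arrays were left out. That of other COPII genes (0.043) was -0.017 with no filter, -0.047 without slide 1, -0.038 with controls 2 and 3 averaged and -0.084 within slide 2, with -0.22 to 0.15 when single arrays were left out. That of other translocation genes ran from -0.022 to 0.22.

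Single members changed sign as follows. Sec62 was 0.077 with the mean over its probes. Ssr4 was -0.0090 without slide 1 and -0.083 with controls 2 and 3 averaged, and -0.32 to 0.38 with single arrays left out. Spcs1 was 0.023 with normexp, 0.10 and 0.044 with fixed and random blocks and 0.15 without slide 1, with -0.45 to 0.39 when single arrays were left out. Dad1 was -0.049 with controls 2 and 3 averaged, and -0.23 to 0.47 with single arrays left out. Kdelr1 was 0.27 and 0.19 with the blocks and 0.23 without slide 1, with -0.46 to 0.39 when single arrays were left out, and Sec23a ran from -0.69 to 0.11. The cause of these changes was not tested.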
